A study of Ceratopteris richardii with 15 samples.

Results

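The root of the fern Ceratopteris richardii was compared at its tip and in the part behind the tip. RNA had been measured in 3 root tip libraries and 3 libraries of root without its tip, here called root. They came from sporophytes of the wild type RNWT1, 50 days old by the labels and grown from spores in culture, with no treatment or other genotype in any group. The same series held 3 libraries each of shoot tip, leaf tip and the leaf behind it, 15 libraries of 5 tissues in all, and those 9 shoot-side libraries served only to describe the genes. A gene entered when it reached 1 TPM (transcript abundance corrected for gene length and scaled to an equal total in every library) in 3 or more of the 6 root tip and root libraries. Of 88641 genes 32687 did so. From these were left out 908 root-only genes, whose level in each of the 12 libraries other than root was under 10% of the root mean, and 31779 genes remained. Because that exclusion reads root tip, it could remove only genes that were low there. The labels do not say that the 3 libraries of a tissue came from separate plants, so the p-values measure the spread between these libraries, which may be technical.

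A fern root grows from an apical cell at its end, which cuts off the cells of the root body inward and those of the root cap outward. Divisions continue for some distance behind it, and the cells then elongate and mature into epidermis with root hairs, cortex, endodermis and vascular tissue. Lateral roots of ferns start close to the tip, in the lineage of the inner cortex or endodermis. A root tip sample therefore holds dividing and young cells together with the cap, and a sample of the root behind it holds mostly mature cells. In such bulk samples fewer cells of a type and less RNA per cell cannot be told apart.

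The table names its genes by identifiers of the kind that the Trinity assembler writes, and 0 of them were found among the 36816 genes of the reference table. No gene could therefore be given a name, a function, a position or a sequence, and the tissue labels were not checked against marker genes. Genes are described below as groups, by their levels in the other tissues, and 4 are given by identifier. Levels are TPM, and differences are root tip minus root on the log2(TPM + 1) scale, which understates the change of genes at low levels.

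Root replicate 3 stood apart from the other libraries of the comparison. Between root replicates 1 and 2, 156 of the 31779 genes (0.491%) differed by more than 2-fold, a number like the 145 to 210 found between pairs of root tip libraries. Between root replicate 3 and the other root libraries it was 1348 and 1360 genes (4.24% and 4.28%). The main counts below are therefore given also without that library.

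Among the genes compared, with TPM as deposited, more were called higher in the tip than lower. The genes compared held 98.9% ± 0.021 of the summed TPM of root tip but 88.8% ± 0.33 of that of root (SD, n = 3 each). The rest lay in genes that were not compared. Its part in these counts and in the shares of TPM below was not tested. In root tip 7303 genes were called higher (23.0% of those compared) and 4120 lower (13.0%), by limma with a Benjamini-Hochberg adjusted p under 0.05 and at least a 2-fold difference, together 11423 genes (35.9%). By the adjusted p alone 23893 genes (75.2%) passed. Without root replicate 3 the numbers were 7348 higher (23.1%) and 4401 lower (13.8%). The filter was not redone for this, so genes that reached 1 TPM only in root replicates 1 and 2 did not enter. Of 35008 and 35035 genes at 1 TPM in these libraries, 28020 and 28061 were compared. With and without root replicate 3, 6987 genes were called higher and 3935 lower, and 0 genes were called in opposite directions. The 3 root tip libraries lay entirely above the 3 root libraries for 7298 of the higher genes and entirely below them for 4110 of the lower ones, where 78.9% of all genes compared had libraries that did not overlap. Keeping the root-only genes brought the lower genes to 5024.

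The other genes were mostly close in level between the zones. For 15062 genes (47.4%) the 95% confidence interval of the difference, taken gene by gene without adjustment, lay within 2-fold. Their share of all TPM was 44.6% ± 0.095 in root tip against 41.2% ± 0.65 in root (SD, n = 3). Another 5294 genes were neither called nor held within 2-fold by their interval. Only 74 genes differed by 2-fold or more without passing the adjusted p, and 37 of these were called once root replicate 3 was left out.

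**Figure D1:**
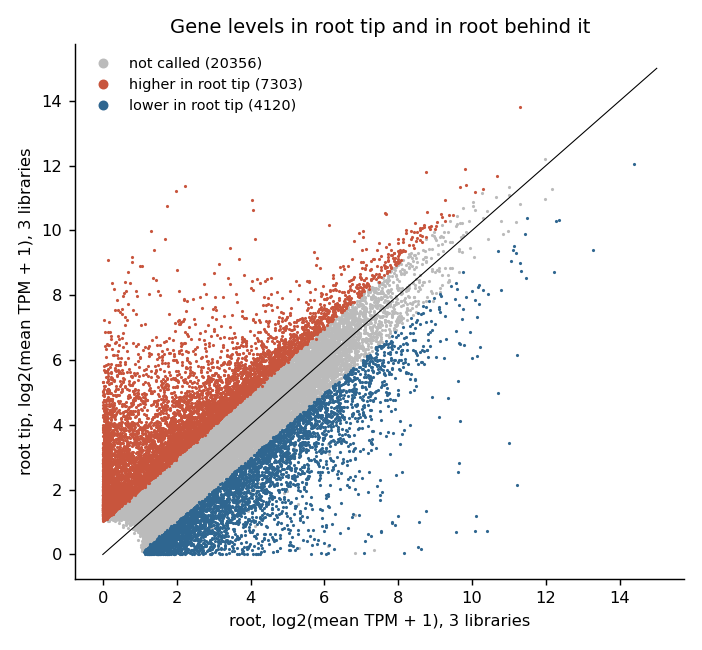
Each point is a gene, placed by its mean level in root (x axis) and root tip (y axis), both as log2(TPM + 1), with the line of equal level. The 7303 genes called higher in root tip lie above the line and the 4120 called lower lie below it, and most of the 20356 grey genes follow the line.

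The balance of the directions depended in part on how the libraries were scaled to each other. Higher genes made up 63.9% of the calls as deposited and 62.5% without root replicate 3. Median-ratio scaling moved the median difference of all genes from 0.20 to 0.02, a shift of -0.18, and the calls became 6082 higher (19.1%) and 5079 lower (16.0%), so that 54.5% were higher. After quantile normalization 54.7% were higher. Under all 3 scalings 5951 genes were called higher and 4119 lower, and 0 genes changed direction.

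The set of genes higher in the tip also had a higher median level in the growing parts of the shoot than in leaf. Its median level was 13.4 TPM in each root tip library and 2.23, 2.28 and 2.33 TPM in root replicates 1, 2 and 3 in that order, as the contrast requires. In the libraries that played no part in the contrast, the median was 14.3 to 14.4 TPM in leaf tip, 14.7 to 14.8 in shoot tip and 4.23 to 4.40 in leaf. Of the 7303 genes higher in the tip 2631 (36.0%) had their highest mean of the 5 tissues in leaf tip, 2506 (34.3%) in root tip, 1549 (21.2%) in shoot tip and 617 (8.45%) in leaf. A mean of 1 TPM or more was reached in all 5 tissues by 4141 of them (56.7%). Root could not be highest for them, and the matching shares over all compared genes are not given. The same genes held 38.1% ± 0.071 of the summed TPM of root tip, 39.97% ± 0.052 of leaf tip and 38.02% ± 0.10 of shoot tip, against 26.8% ± 0.091 of leaf and 10.4% ± 0.29 of root (SD, n = 3 each).

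The genes lower in the tip were mostly at their highest in the root behind it, which the contrast favours. Root tip could not be highest for them, and the share over all compared genes is not given. Of the 4120 genes, 3415 (82.9%) had their highest mean in root and 480 (11.7%) in leaf, against 119 in leaf tip and 106 in shoot tip. Their median level in root was 13.3 to 14.1 TPM, with replicate 3 the lowest, and in root tip 2.61 to 2.67 TPM. In leaf the median was 4.22 ± 0.086 TPM (SD, n = 3), above the 1.60 to 1.63 of leaf tip and the 2.70 to 2.73 of shoot tip. They held 27.5% ± 0.48 of the summed TPM of root, 17.8% ± 0.20 of that of leaf and 6.12% ± 0.018 of that of root tip (SD, n = 3 each).

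Most called differences were moderate. Among the higher genes 4811 (65.9%) differed by 2-fold to 4-fold, 2064 (28.3%) by 4-fold to 16-fold, 362 by 16-fold to 64-fold and 66 by 64-fold or more. Among the lower genes the numbers were 2869 (69.6%), 1107 (26.9%), 120 and 24. The exclusion of root-only genes could reduce the numbers of lower genes and not those of higher genes. With root-only genes kept, a setting chosen after seeing the data, 320 genes were called 16-fold or more lower. The 66 genes at the top of the higher set had a median of 198.6 TPM in root tip and 0.515 TPM in root. The 24 at the end of the lower set had a median of 326.9 TPM in root and 0.652 TPM in root tip. Every call of 4-fold or more was also made without root replicate 3, and the calls lost without it, 316 higher and 185 lower, were all between 2-fold and 4-fold. Of these lost calls 312 and 181 still passed the adjusted p and fell short of the 2-fold minimum.

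The filter let in genes from a single zone that had to differ. A level of 1 TPM or more in all 3 root tip libraries and in no root library was found for 2790 genes, of which 2327 were called higher and 463 had too small a difference on the log2(TPM + 1) scale or too large an adjusted p. Their median mean level in root tip was 3.09 TPM, and 524 of them reached 10 TPM. The reverse, 1 TPM or more in all 3 root libraries and in no root tip library, was found for 1799 genes, of which 1114 were called lower. Their median mean level in root was 2.16 TPM, and 140 reached 10 TPM. The exclusion of 908 root-only genes could take genes from this second set and not from the first, so the sizes of the 2 sets are not compared. The same holds for the genes listed at 0. Levels listed at 0 in all libraries of a zone were fewer, with 172 genes listed at 0 in root and 56 in root tip. A listed 0 need not mean absence, since the estimation can also fail. The highest mean in the other zone was 39.1 TPM in root tip for the former and 18.1 TPM in root for the latter.

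The genes with the largest difference in abundance between the zones were given by identifier. They were chosen as the 2 higher and the 2 lower genes with the largest differences in mean TPM, among the 6985 higher and 3927 lower genes that were called with and without root replicate 3 and whose libraries did not overlap. LE_TRINITY_DN17701_c3_g1 was the most abundant gene of root tip, at 14360.96, 14428.43 and 14526.51 TPM in its libraries. In root it was at 2249.6, 2256.04 and 3019.28 TPM, the last in replicate 3. The zones did not overlap, and replicate 3 was the highest of the root libraries. The difference was 2.54 (SE 0.12, limma adjusted p = 3.6e-06), a ratio of mean TPM of 5.76, and without root replicate 3 it was 2.68 (SE 0.0091, adjusted p = 1.5e-10). The gene was also abundant in leaf, at 11530.06 to 11845.82 TPM, and lower in shoot tip, at 4560.09 to 4580.51 TPM, and in leaf tip, at 2271.3 to 2298.92 TPM. It was thus higher at the tip in the root and higher behind the tip in the leaf.

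LE_TRINITY_DN16520_c1_g1 was at 3563.53, 3546.15 and 3617.72 TPM in root tip and at 428.94, 415.46 and 454.01 TPM in root. Replicates were close in both zones, root replicate 3 included, and the difference was 3.04 (SE 0.043, adjusted p = 7.1e-08 in limma). The level in root was the lowest of the 5 tissues, since leaf tip averaged 6102 ± 68.6 TPM, leaf 5102 ± 108 and shoot tip 3404 ± 38.7 (SD, n = 3 each). It ranked 182 in root, where it was still abundant, and 5 in root tip.

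LA_TRINITY_DN10907_c0_g1 was the most abundant of the compared genes in root, at 20813.74, 21563.76 and 21361.66 TPM. In root tip it was at 4292.62, 4275.27 and 4252.71 TPM, where it still ranked 3. The difference was -2.31 (SE 0.041, adjusted p = 1.2e-07 in limma), a root to root tip ratio of 4.97. In the shoot it averaged 8912 ± 368 TPM in leaf, 6482 ± 49.8 in shoot tip and 3387.98 to 3426.27 in leaf tip (SD, n = 3 each, and the range for leaf tip), so that leaf tip and root tip were its lowest tissues. After quantile normalization the difference was -1.40. It alone was 2.12% of everything measured in root.

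SHA_TRINITY_DN11391_c0_g1 ranked 2 in root, at 9904.97, 9871.69 and 9838.59 TPM, and 126 in root tip, at 658.37, 687.02 and 683.81 TPM. The difference was -3.87 (SE 0.037, adjusted p = 2.8e-08 in limma), a root to root tip ratio of 14.6. Leaf held 2062.89 to 2215.41 TPM, while shoot tip averaged 91.1 ± 2.51 and leaf tip 41.7 ± 1.07 (SD, n = 3). All 3 tips were below the mature part of either organ for this gene.

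**Figure D2:**
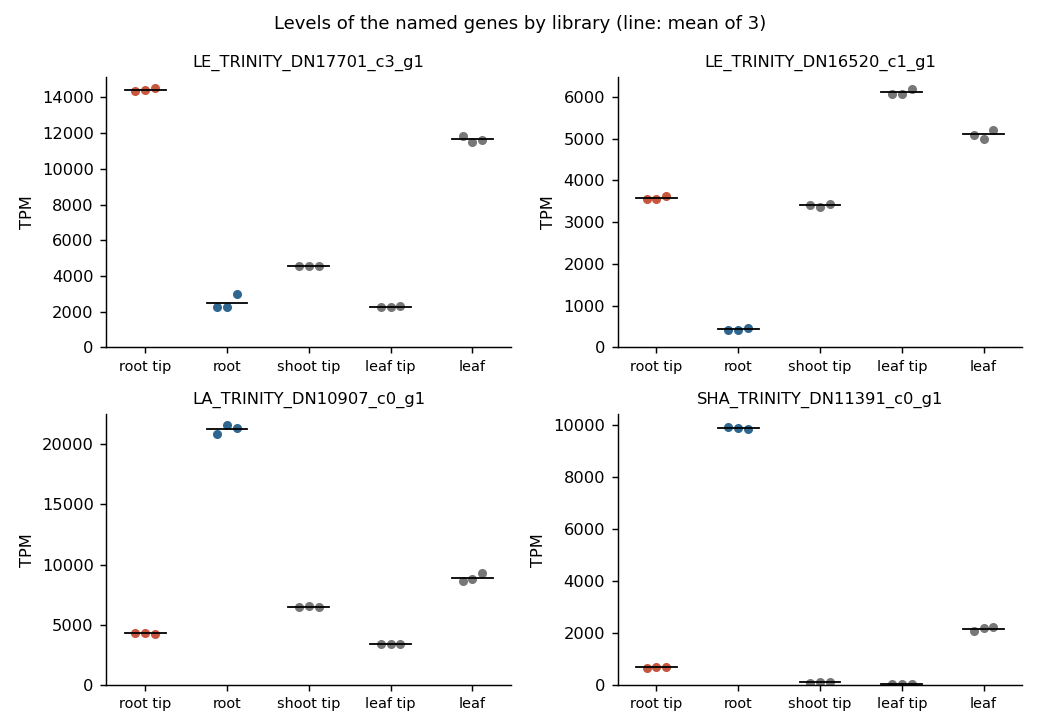
TPM of the 4 genes given by identifier in each of the 15 libraries (y axis, linear from 0), with 1 point per library and a line at the mean of 3. The upper genes are high in root tip (red) and low in root (blue), the lower genes are the reverse, and root replicate 3 departs visibly from the other root libraries only for LE_TRINITY_DN17701_c3_g1, at 3019.28 TPM.

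The genes were next grouped by their levels in leaf tip, leaf and shoot tip, which do not enter the contrast. Genes led by the tips, with leaf tip and shoot tip each at least 2-fold above leaf on the log2(TPM + 1) scale, numbered 7098. Of these 3630 (51.1%) were called higher in root tip and 157 (2.21%) lower, against 23.0% and 13.0% of all genes, and their median difference was 1.02 against 0.20 for all genes. They supplied 49.7% of all genes called higher in root tip while being 22.3% of the genes compared. Their summed TPM came to 29.8% ± 0.036 of the root tip total against 13.9% ± 0.13 of the root total (SD, n = 3). Without root replicate 3 the calls were 3575 higher and 201 lower, and after median-ratio scaling 3082 and 216 with a median of 0.85.

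Genes led by leaf, at least 2-fold higher there than in both leaf tip and shoot tip, went the other way. Of 2657 such genes 1042 (39.2%) were lower in root tip and 342 (12.9%) higher, with a median difference of -0.63. The lower ones had median levels of 23.9 TPM in root, 18.2 in leaf, 3.88 in root tip, 2.71 in shoot tip and 1.51 in leaf tip. The 342 higher ones had 14.3 TPM in root tip and 2.44 in root, with 38.4 TPM in leaf. LE_TRINITY_DN17701_c3_g1 is among the latter and SHA_TRINITY_DN11391_c0_g1 among the former. The whole group held 17.1% ± 0.39 of the root total and 10.1% ± 0.056 of the root tip total (SD, n = 3). Without root replicate 3 the calls were 1064 lower and 356 higher, and after median-ratio scaling 1180 and 304 with a median of -0.82.

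Genes that were even across the shoot tissues, with less than a 2-fold range among leaf tip, leaf and shoot tip, were also mostly even along the root. Of 14336 such genes 9246 (64.5%) were held within 2-fold by their interval, against 47.4% of all genes, and 1570 (10.95%) were higher and 1230 (8.58%) lower in root tip. Their median difference was 0.02 as deposited and turned to -0.01 without root replicate 3, to -0.15 after median-ratio scaling and to -0.14 after quantile normalization. After median-ratio scaling 1206 of them were higher and 1717 lower, so no direction is given for this group. The remaining 5295 genes, with mixed patterns, had 1300 higher and 937 lower and a median difference of 0.20. After median-ratio scaling they had 1081 higher and 1103 lower and a median of 0.02, so no direction is given for them either.

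Genes at under 1 TPM on average in leaf tip, leaf and shoot tip had passed the filter through their levels in root tip or root. They numbered 2393, of which 461 (19.3%) were higher in root tip, 754 (31.5%) were lower and 556 (23.2%) were held within 2-fold. Without root replicate 3 the calls were 508 higher and 778 lower. They were mostly low in the root as well, with median levels of 1.34 TPM in root tip and 1.91 TPM in root, and together held 1.15% ± 0.013 of the root tip total against 1.27% ± 0.25 of the root total (SD, n = 3). The 461 higher genes had a median of 3.43 TPM in root tip and 0.253 in root, with 100 of them at 10 TPM or more in root tip and a highest mean of 274.0 TPM. The 754 lower genes had a median of 3.60 TPM in root and 0.458 in root tip, with 126 at 10 TPM or more in root and a highest mean of 207.3 TPM. The exclusion of root-only genes falls mainly on this group: with them 1490 genes were lower, and when root-only genes were defined without root tip the number was 476. The lowest difference among the 754 was -3.33, since a gene with a much lower one would have been left out as root-only.

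**Figure D3:**
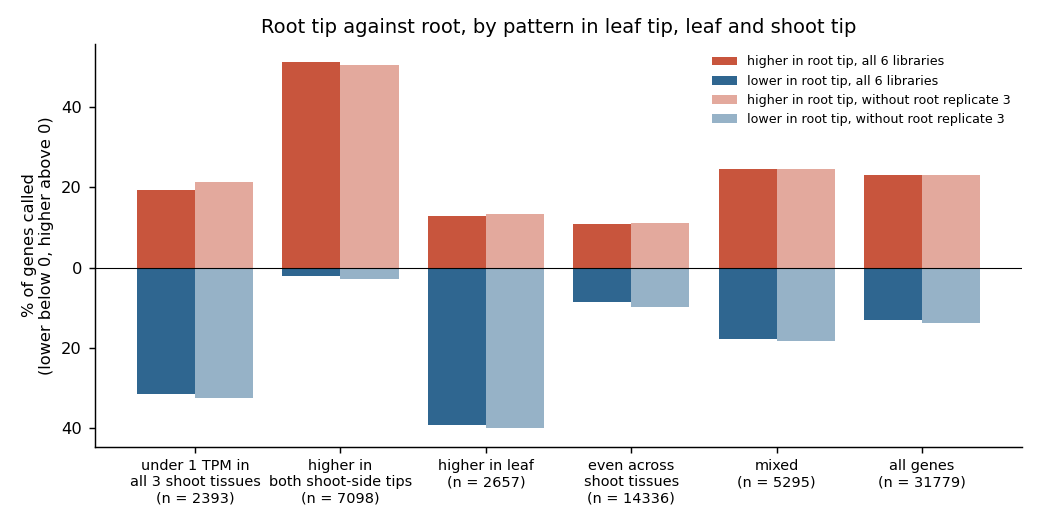
Percentage of genes called higher (red, above 0) and lower (blue, below 0) in root tip than in root, for each group by pattern in leaf tip, leaf and shoot tip, with all 6 libraries (dark) and without root replicate 3 (pale). Genes led by the shoot-side tips have 51.1% higher and 2.21% lower, genes led by leaf 12.9% and 39.2%, and the bars with and without root replicate 3 are close in every group.

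The groups also differed at the extremes of the root contrast. Of the 428 genes that were 16-fold or more higher in root tip, 256 (59.8%) were led by the shoot-side tips and 20 (4.67%) by leaf. Of the 144 genes that were 16-fold or more lower, 97 (67.4%) were led by leaf and 10 (6.94%) by the tips. Over all genes compared the shares were 8.36% led by leaf and 22.3% led by the tips. These 144 had passed the exclusion of root-only genes through their levels in the shoot tissues, since their root tip levels were too low for that. With root-only genes kept, a setting chosen after seeing the data, 114 of 320 (35.6%) were led by leaf, 15 (4.69%) by the tips and 82 were under 1 TPM in the shoot tissues. Across the range the leaf tip minus leaf difference was larger in genes with a larger root tip minus root difference, and the 2 contrasts share no library. Its median was -0.98 for the 1112 genes at a root difference between -4 and -2, 0.34 for the 11658 genes between -0.5 and 0.5, and 1.84 for the 428 genes at 4 or more. Leaf tip was above leaf for 21.4% of the 1112, for 67.5% of the 11658 and for 79.0% of the 428. The share was already 80.7% for the 4839 genes between 1 and 2 and did not increase beyond. The shoot tip minus leaf difference took the same course, from -0.60 to 2.77. At -4 or lower the values depended on the exclusion. The 145 genes there had medians of -3.25 for leaf tip minus leaf and -2.29 for shoot tip minus leaf, and with root-only genes kept the 321 genes there had -0.70 and 0. Of the 908 root-only genes 904 were called lower and 176 lay at -4 or lower. Most of the others therefore fell between -4 and -1, where no values with them are given. Genes are not independent replicates, and these medians are a description without a test.

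**Figure D4:**
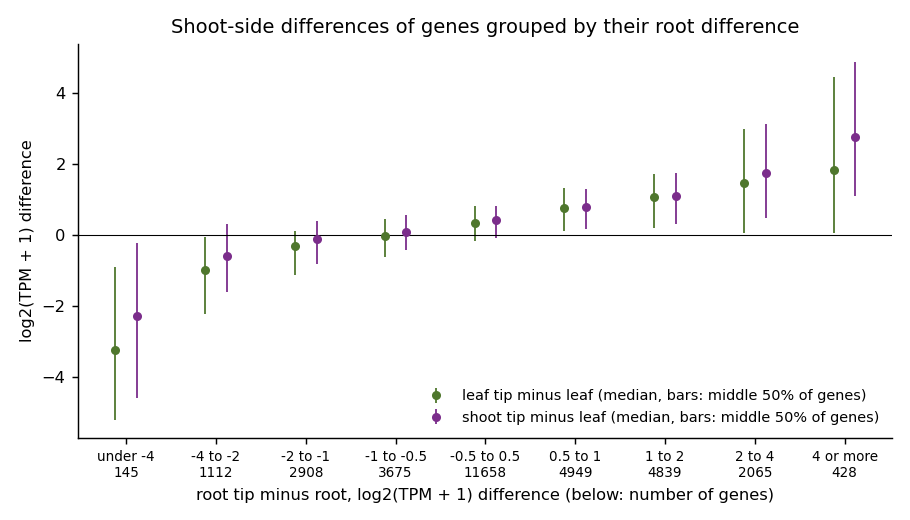
Median difference between leaf tip and leaf (green) and between shoot tip and leaf (purple), in log2(TPM + 1), for genes grouped by their difference between root tip and root (x axis, with the number of genes under each range). Bars span the middle 50% of genes, and the medians run from -0.98 and -0.60 for the 1112 genes between -4 and -2 to 1.84 and 2.77 at the right. The exclusion of root-only genes shapes the leftmost group, at -3.25 and -2.29, and it also removed genes between -4 and -1.

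Each identifier begins with a tissue code, the same codes that head the columns, and calls differed by this prefix. Of 7235 genes with the root prefix 2111 (29.2%) were lower in root tip and 526 (7.27%) higher, while of 6577 with the root tip prefix 2094 (31.8%) were higher and 465 (7.07%) lower. The prefixes of leaf tip and shoot tip resembled that of root tip, with 28.9% and 28.6% higher, and the leaf prefix had 17.5% higher and 14.3% lower. For the leaf prefix the balance turned after median-ratio scaling, from 749 higher and 614 lower to 604 and 757. The split was sharpest among the genes under 1 TPM in the shoot tissues. There 393 of 879 with the root tip prefix were higher and 68 lower, while 34 of 1258 with the root prefix were higher and 615 lower. The part of the prefix in the counts of that group was not tested. Among the genes led by the shoot-side tips the direction was the same within each of the 5 prefixes, with medians of 0.55 for the root prefix and 0.89 to 1.19 for the others. Among those led by leaf the medians were -1.46 for the root prefix and -0.08 to -0.44 for the others.

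**Figure D5:**
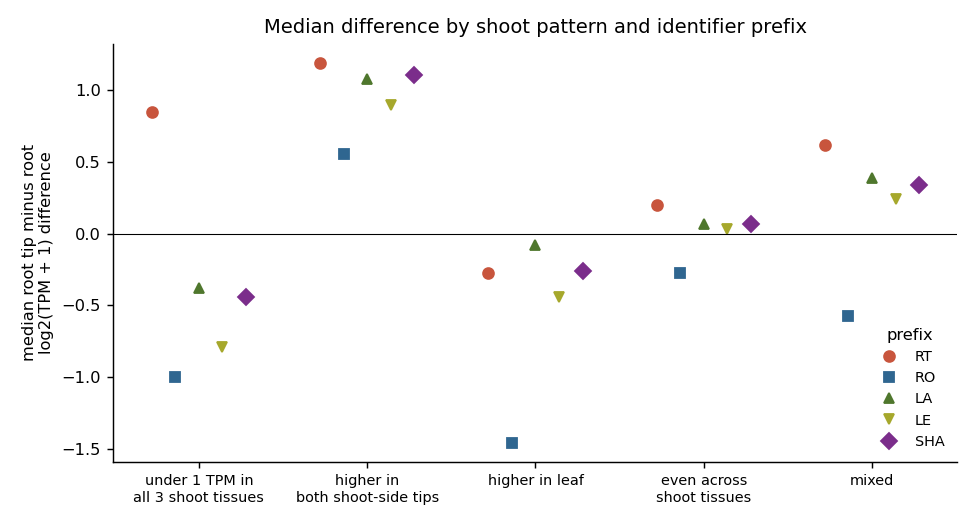
Median difference between root tip and root, in log2(TPM + 1), for each group by shoot pattern (x axis) and each identifier prefix (RT root tip, RO root, LA leaf tip, LE leaf, SHA shoot tip). The root prefix has the lowest median in each group and the root tip prefix the highest in all groups except genes led by leaf, where the leaf tip prefix is at -0.08 and the root tip prefix at -0.28.

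Identifiers of the same assembly cluster, which share sequence in the assembly, were mostly but not always called the same way. Of the 31779 genes 2524 fell in 1211 clusters with more than 1 of them. In 263 clusters more than 1 was called, and in 214 of these all called members went the same way, 124 of them higher in root tip. In 49 clusters (18.6%) members were called in both directions, and 43 of these were so without root replicate 3 as well. The matching share for called genes of different clusters is not given. Single values of genes in the same cluster are uncertain where the copies are alike enough to share reads.

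The lists of the most abundant genes differed between the zones. Of the 100 compared genes with the highest mean in root tip, 54 were called higher and 5 lower, and of the 100 highest in root 53 were lower and 8 higher. Ranking a gene by its level in a zone favours calls toward that zone, so these counts describe the lists only. The lists shared 42 genes. The 100 of root tip made up 15.7% ± 0.097 of the summed TPM there and 11.4% ± 0.087 in root, and the 100 of root 17.6% ± 0.074 there and 10.6% ± 0.093 in root tip (SD, n = 3 each). With root-only genes kept, 16 of the 100 highest in root were root-only genes, and 62 of the 100 were lower and 7 higher. None of the genes in any of these lists was under 1 TPM in all shoot tissues. In the root tip list 38 were led by the shoot-side tips, against 22.3% of all genes compared. In the root list without root-only genes 37 were led by leaf, against 8.36% of all genes compared. By the mean over the 6 libraries, 56 genes lay at 1000 TPM or more, of which root tip was called higher for 14 and lower for 19 (9 and 23 after median-ratio scaling). Genes under 10 TPM, 17041 in number, had 4072 higher (23.9%) and 2200 lower (12.9%), close to the shares of all genes.

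Where root replicate 3 departed from the other root libraries, it did so in both directions. It was more than 2-fold above the mean of replicates 1 and 2 for 704 genes and more than 2-fold below it for 529. For the 704 genes the median was 3.79 and 3.87 TPM in replicates 1 and 2 and 14.3 TPM in replicate 3, with 7.54 TPM in root tip, 2.97 in shoot tip, 1.32 in leaf and 0.845 in leaf tip. Outside root their highest mean was in root tip for 355, in shoot tip for 163, in leaf for 143 and in leaf tip for 43. Leaving replicate 3 out raised the number of these called higher in root tip from 198 to 289 and lowered the number called lower from 176 to 140. For the 529 genes the median was 8.22 and 8.31 TPM in replicates 1 and 2 and 2.55 TPM in replicate 3, with 3.16 TPM in root tip. The number of these called lower in root tip was 211 with replicate 3 and 261 without it, and the number called higher was 65 and 49. Both sets were chosen by their level in replicate 3, so the direction of these shifts follows from that choice.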

How the data were processed

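Per the labels' protocols, frozen tissue was extracted with TRIzol and sequenced from Illumina libraries. The authors deposited 1 table of TPM values for 88641 genes, with 2 decimals and a sum of 1000000 per library up to rounding. RSEM 1.3.2, Bowtie2 2.3.4.3 and Trim Galore 0.5.0 are listed in the submitters' processing notes. The assembly and settings are not given in the sources used here. Sequencing depth is unknown, so no counting interval or floor is given. Columns were matched to samples by description, and the 3 leaf columns to the leaf group only.

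The log2(TPM + 1) values were fitted in limma (version 3.58.1, R 4.3.3) with a mean for each zone, a moderated variance that follows the intensity and 4 residual degrees of freedom. The 6 root tip and root libraries entered the fit, and p-values were adjusted by Benjamini-Hochberg over 32687 genes, root-only genes included. A gene was called at an adjusted p under 0.05 and an absolute log2 difference of at least 1. Leaving out a library kept the same genes. Differences between the tip effects of root and leaf came from a fit of all 15 libraries. The fit was tested on simulated data with the spread of the root tip libraries. The departure of root replicate 3 was not simulated. Figures were drawn with matplotlib 3.10.9. The genes, groups and rule for named genes were chosen with earlier results of these data known. Genes called with and without root replicate 3 whose libraries do not overlap were ranked by their difference of mean TPM, and the rule names the top 2 and the bottom 2. Gene lists for pathways or cell types were not used, since no identifier could be annotated.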

Additional observations from a re-analysis of the deposited data

Results flagged for a closer look

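For each of the 4 genes given by identifier the difference between tip and mature part was not the same in root and leaf, by a test of the difference itself in limma over all 15 libraries. The value is root tip minus root less leaf tip minus leaf, in log2(TPM + 1). The genes were chosen by their difference between root tip and root, which is part of this value. The p-values do not allow for that choice. It was 4.89 for LE_TRINITY_DN17701_c3_g1 (SE 0.12, adjusted p = 3.2e-13), whose tip effect was 2.54 in root and -2.35 in leaf, so that every root tip library was above every root library and every leaf tip library below every leaf library. For LE_TRINITY_DN16520_c1_g1 it was 2.79 (SE 0.047, adjusted p = 1.2e-14), with 3.04 in root and 0.26 in leaf. For LA_TRINITY_DN10907_c0_g1 it was -0.93 (SE 0.048, adjusted p = 7.2e-10), with -2.31 in root and -1.38 in leaf. That is short of a 2-fold difference, and after quantile normalization the root difference of this gene was -1.40. The values of this test are for TPM as deposited and are not given under another scaling. For SHA_TRINITY_DN11391_c0_g1 it was 1.79 (SE 0.046, adjusted p = 6.2e-13), with -3.87 in root and -5.65 in leaf. Without root replicate 3, an alternative chosen after seeing the data, the values were 5.03, 2.82, -0.92 and 1.79 for the genes in this order. Over all 31779 genes the same test with a 2-fold minimum called 4998 with the higher tip effect in root and 6781 in leaf.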

How the results depend on the processing

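The results were recomputed under 18 alternatives. With a pseudocount of 5 the genes higher, lower and held within 2-fold numbered 3942, 2169 and 23203. When only genes with a mean of at least 5 TPM were kept, 4659 genes were higher and 2583 lower. With no filter 51371 genes were held within 2-fold. The other values of these counts stayed within 1.5 times. Leaving out 1 library at a time gave 7250 to 7354 higher, 3989 to 4401 lower and 13652 to 16088 within 2-fold. The 4 named genes kept their direction and their call in each of the 18. Of 324 recomputed counts by group or level, 301 stayed within 1.5 times, 21 were smaller and 2 larger. A fit with the replicate block gave 7309 higher and 4120 lower. Same-numbered libraries did not deviate together (correlations of 0.0018, -0.012 and 0.0099 across genes), so the numbers give no pairing. The depth behind each value is unknown, and genes at a few TPM rest on an unknown number of reads.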
